A study of Mus musculus with 18 samples.

Results

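The genes described here are Edn1, Ece1, Ednrb, Lipg and Sele, 5 of the 24485 genes listed for every library. They were picked by name because earlier results of the same libraries gave them large changes with LPS, JQ1 or IL-10, so their fold changes are given as a description and carry no test. RNA was sequenced from bone marrow-derived macrophages (BMDMs) of 12-week-old male Il10-/- mice on the C57BL/6J background, grown for 6 days in medium with 10% L929-conditioned medium, and all 18 libraries share the Il10-/- genotype. Cells were left untreated or were pretreated for 12 h with 500 nM (+)-JQ1, a small molecule that occupies the bromodomains of BET proteins, or with 10 ng/mL IL-10, the cytokine these cells cannot make. LPS, a bacterial cell wall component, was then added at 50 ng/mL for 4 h in the groups LPS, LPS + JQ1 and LPS + IL-10, and PBS in the groups Unstimulated, JQ1 and IL-10. Each of the 6 groups held 3 libraries, and equal replicate numbers were read as the same mouse of 3. The labels call cells without a pretreatment untreated, whereas the study's methods name a vehicle control before LPS. Wild-type cells were not analysed here.

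Endothelin-1 is a small vasoconstrictor peptide best known from endothelial cells. Its precursor, encoded by Edn1, is first cut by furin-type proteases to big endothelin and then by endothelin-converting enzymes such as Ece1, and the mature peptide signals through the G protein-coupled receptors Ednra and Ednrb. Ednrb also takes up and clears the peptide. Lipg encodes endothelial lipase, a secreted phospholipase of the lipoprotein lipase family that acts on HDL. Sele encodes E-selectin, an adhesion molecule that cytokine-activated endothelium displays to slow passing leukocytes. Macrophages are known to make endothelin-1 and endothelial lipase when activated by microbial products.

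The sequences just upstream of the start of Sele and Edn1 are shown because both genes were at or near 0 counts without LPS and were readily counted with it. Sele lies on the plus strand of chromosome 1 (mm9, 165978365 to 165987808, 14 exons in GENCODE vM1), and the stretch shown is chr1:165978115-165978364 on the plus strand, the 250 bases before its start in the RefSeq promoter table of GRCm38.p6, placed on mm9 by 1 exact match. Edn1 lies on the plus strand of chromosome 13 (mm9, 42396639 to 42403358, 5 exons), and the stretch shown is chr13:42396389-42396638, the 250 bases before its GENCODE vM1 start. Capitals mark matches to the motifs searched on both strands, namely a loose kappa B motif (GGG, any 5 bases, CC), a stricter kappa B motif (GGGA, any base, TT, any base, CC), the AP-1 motif TGANTCA, a STAT motif (TTC, any 3 bases, GAA) and an interferon response motif (GAAA, any 2 bases, GAAA).
Sele: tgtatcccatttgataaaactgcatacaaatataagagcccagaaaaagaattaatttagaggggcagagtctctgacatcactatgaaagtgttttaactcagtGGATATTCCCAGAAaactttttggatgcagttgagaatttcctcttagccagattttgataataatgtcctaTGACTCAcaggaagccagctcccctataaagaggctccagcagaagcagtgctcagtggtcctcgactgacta
Edn1: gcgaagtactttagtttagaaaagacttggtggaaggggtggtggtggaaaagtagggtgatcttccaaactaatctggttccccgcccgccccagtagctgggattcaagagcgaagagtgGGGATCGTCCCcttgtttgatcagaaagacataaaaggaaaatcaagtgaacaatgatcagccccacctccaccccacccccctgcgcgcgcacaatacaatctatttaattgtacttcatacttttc
In the Sele window the first capitals hold a loose kappa B match on the minus strand that begins at -145, counted back from the start, and a STAT match at -140 that overlaps it. The later capitals are an AP-1 match at -73. The Edn1 window holds overlapping loose kappa B matches at -128 on the plus strand and -127 on the minus strand. Neither of the stretches shown held the stricter kappa B or the interferon response letters. Of 32536 distinct promoter windows of the same length in the RefSeq table, 46.0% held a loose kappa B match, 7.04% a STAT match and 6.73% an AP-1 match, and each match is a description only. The RefSeq start of Edn1 lies 206 bases inside the GENCODE gene, so its window in that table is another one. The RefSeq window of Edn1 held no loose kappa B match and 1 interferon response match, on the minus strand at -78, which 2.98% of all windows held.

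Total expected counts per library ran from 6781952 to 28289498, and 3 counts, taken as the floor, were worth 0.106 to 0.442 CPM. Unstimulated replicate 2 was the shallowest library. The macrophage markers Adgre1, Csf1r, Cd68, Itgam, Lyz2, Mertk, Spi1 and Fcgr1 were all detected in each group, with a summed level of 14218 to 28588 TPM per library. Lyz2 made up most of that sum, and without it, a choice made after the values were seen, the sum was 4497 to 4807 TPM with LPS and 3357 to 3601 with LPS + JQ1. Of these 8 markers, 6 were called lower and 1, Lyz2, higher in LPS + JQ1 against LPS (32.9% and 24.4% of all genes), the lower ones including Fcgr1 at 8084 and 302 and Itgam at 10999 and 2279 mean normalised counts with LPS and LPS + JQ1. Scaling mattered for LPS: the median log2 fold change over all genes tested against unstimulated cells was -0.07 with DESeq2 size factors and -1.02 when libraries were scaled to equal total counts. Genes called higher with LPS made up 49.0% of calls in the first case and 20.1% in the second. For LPS + JQ1 against LPS that share moved the other way, from 42.5% to 64.9%, and the median from -0.11 to 0.25. Levels below are normalised counts (expected counts divided by DESeq2 size factors) unless TPM is named, and every ± is an SD over 3 libraries or, for a log2 fold change, its standard error (SE).

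Against unstimulated cells, 4 of the 5 genes passed an adjusted p under 0.05 with LPS, all of them higher, where 64.5% of the 14965 genes tested passed in either direction and 31.6% were higher. All 5 genes passed the filter on low counts in every comparison, which uses the mean over all 18 libraries. Edn1, Lipg and Sele held at most 2 counts in any library without LPS and passed it through the LPS libraries. They could not have been called with JQ1 alone or IL-10 alone, so those counts out of 5 are not comparable with the shares of all genes. Since the genes were picked on these contrasts, nothing is read from the counts of calls. With JQ1 alone 2 of 5 passed, both lower (all genes, 45.7% in either direction and 23.7% lower). With IL-10 alone 1 of 5 passed and was higher (all genes, 2.81% in either direction, 1.80% higher and 1.01% lower). In LPS + JQ1 against LPS, 4 of 5 passed and were lower (all genes, 57.3% in either direction and 32.9% lower). In LPS + IL-10 against LPS, 4 of 5 passed, 3 of them higher and 1 lower (all genes, 17.2% in either direction, 8.38% higher and 8.81% lower). In LPS + JQ1 against LPS + IL-10, 3 of 5 passed and were lower (all genes, 55.3% in either direction and 31.6% lower).

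**Figure D1:**
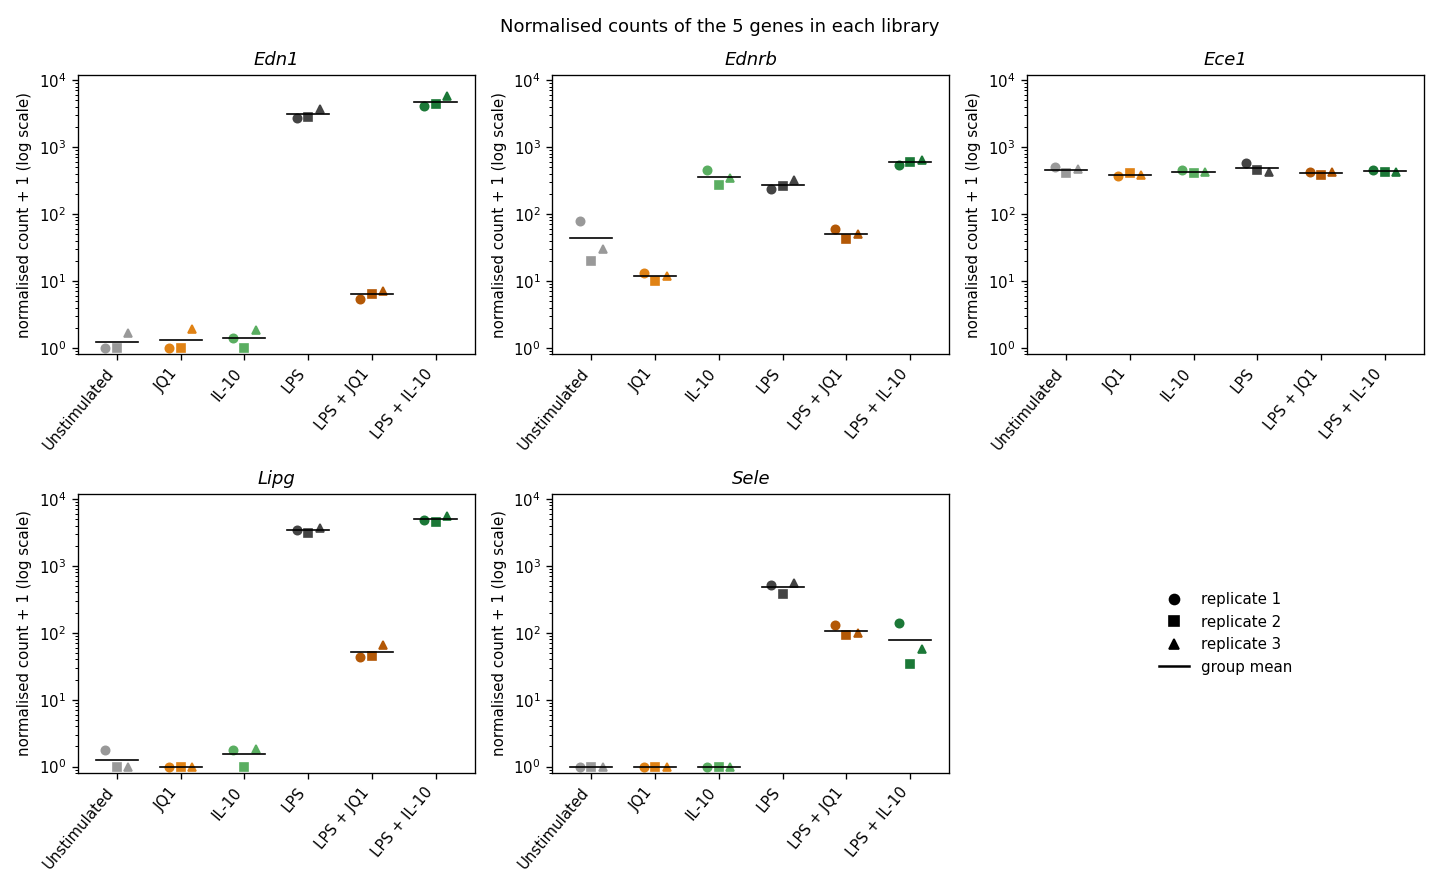
Normalised counts of Edn1, Ednrb, Ece1, Lipg and Sele in each of the 18 libraries, plotted as count + 1 on a log axis, with symbols for replicates and a bar for the group mean. Edn1, Lipg and Sele sit at or near 0 in the 9 libraries without LPS, Edn1 and Lipg drop with LPS + JQ1 and not with LPS + IL-10, and Ece1 stays between 371 and 568.

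Edn1, the ligand, was practically silent until LPS was added. Its raw counts were 0, 0 and 1 in unstimulated replicates 1, 2 and 3. The JQ1 libraries likewise held 0, 0 and 1, and the IL-10 libraries 1, 0 and 1. With LPS the normalised counts were 2674, 2802 and 3748, and no library without LPS came near them. Summed over replicates this was 7654 counts against 1, a ratio of 10392 after scaling, with an exact 95% Poisson interval of 1865 to 410529 that covers counting error only. Scaling to total counts gave a ratio of 5443, and leaving out unstimulated replicate 1 gave 6406. On the per-length TPM scale the LPS level was 128 ± 34.1, which placed Edn1 at rank 984 of 14934 genes with a TPM above 0.

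With LPS + JQ1, Edn1 was left at 4.42, 5.27 and 6.15 normalised counts, from raw counts of 4, 5 and 5. These were above the floor of 3 counts in every library, but they were 586-fold below LPS alone (log2 fold change -9.19, SE 0.419). Each LPS + JQ1 library held 0.164% to 0.188% of the same-numbered LPS library. Some response to LPS could still be counted, since LPS + JQ1 held 14 counts and JQ1 alone held 1, a ratio of 17.1 with an exact 95% interval of 2.61 to 724. The rank of Edn1 by TPM was then 11342 of 14534 genes.

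With LPS + IL-10, Edn1 was higher than with LPS alone, at 4167, 4378 and 5741. The groups did not overlap, and the 3 same-numbered libraries stood at 153% to 156% of LPS (log2 fold change 0.63, SE 0.164). Leaving out any 1 library of the comparison gave 0.48 to 0.80. At 213 ± 52.3 TPM the transcript reached rank 655 of 14935.

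Ece1, the converting enzyme, had the narrowest range of the 5 genes. It lies on chromosome 4 (mm9, 137418152 to 137521144, plus strand, up to 20 exons in 5 annotated transcripts). GENCODE vM1 places 2 genes on the opposite strand that overlap its span, Gm13012 and AL807764.1. Where strand is not used in counting, reads from any shared exon could not be told apart. Whether exons are shared was not tested. Unstimulated replicates 1, 2 and 3 held 500, 409 and 464 normalised counts and LPS replicates held 568, 448 and 428. These groups overlapped, with a log2 fold change of 0.06 (SE 0.107). On the other scales the sign turned: the value was -0.02 with TMM factors, -0.87 with total-count scaling and -0.65 on log2(TPM + 1), and Ece1 was at 13.6 ± 1.73 TPM without stimulation and 8.28 ± 0.800 TPM with LPS. Its direction with LPS therefore depended on the scaling.

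JQ1 alone left Ece1 at 371, 402 and 386, below all unstimulated libraries (log2 fold change -0.26, SE 0.107). IL-10 alone left it at 446, 403 and 421, which overlapped with the unstimulated libraries (log2 fold change -0.12, SE 0.104). With LPS + JQ1 it was 420, 376 and 426, just under the lowest LPS library (log2 fold change -0.24, SE 0.109), but total-count scaling gave 0.14 and log2(TPM + 1) gave 0.07. With LPS + IL-10 it was 445, 429 and 419, overlapping with LPS alone.

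Ednrb, the type B receptor, varied among the groups without LPS as well as among those with it. It lies on the minus strand of chromosome 14 (mm9, 104213842 to 104243390, up to 8 exons in 3 annotated transcripts). Unstimulated replicates held 78.7, 18.6 and 28.8 normalised counts, so replicate 1 stood well above the other two. With IL-10 alone the libraries held 456, 273 and 339, all above the unstimulated ones, a log2 fold change of 3.03 (SE 0.310). Without unstimulated replicate 1 the value was 3.83. JQ1 alone left 12.1, 8.87 and 11.0, below every unstimulated library, a log2 fold change of -2.03 (SE 0.393) that became -1.23 without unstimulated replicate 1.

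LPS took Ednrb to 235, 261 and 325 normalised counts, 6.26-fold over unstimulated cells (log2 fold change 2.65, SE 0.313). Leaving out unstimulated replicate 1 gave 3.44 and total-count scaling gave 1.72, with the same sign. Replicate 2 was sequenced on another lane with LPS than without, while replicates 1 and 3 kept their lane. Within lane, the log2 ratio of normalised counts + 1 was 1.56 in replicate 1 and 3.45 in replicate 3.

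Adding IL-10 before LPS gave the highest Ednrb levels of all groups, 543, 593 and 641, with no overlap with LPS (log2 fold change 1.11, SE 0.289) or with IL-10 alone (0.73, SE 0.286). LPS + JQ1 held 58.5, 41.1 and 49.2, below every LPS library (log2 fold change -2.46, SE 0.313). They were 4.63-fold over JQ1 alone, also with no overlap. Ordered by mean, the groups ran from JQ1 (10.7) through Unstimulated (42.0), LPS + JQ1 (49.6), LPS (274) and IL-10 (356) to LPS + IL-10 (592). Unstimulated and LPS + JQ1 overlapped, as did LPS and IL-10, while the other neighbours did not. The receptor's abundance-weighted transcript length, as deposited, was 3793 to 4191 bases in unstimulated libraries and 3180 to 3235 bases with LPS + IL-10. It was 2987 to 4191 with JQ1, 3516 to 3773 with IL-10, 3261 to 3558 with LPS and 3184 to 3773 with LPS + JQ1. These lengths describe how the reads were divided among its transcripts, and some rest on few reads, such as 11 counts in unstimulated replicate 2.

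**Figure D2:**
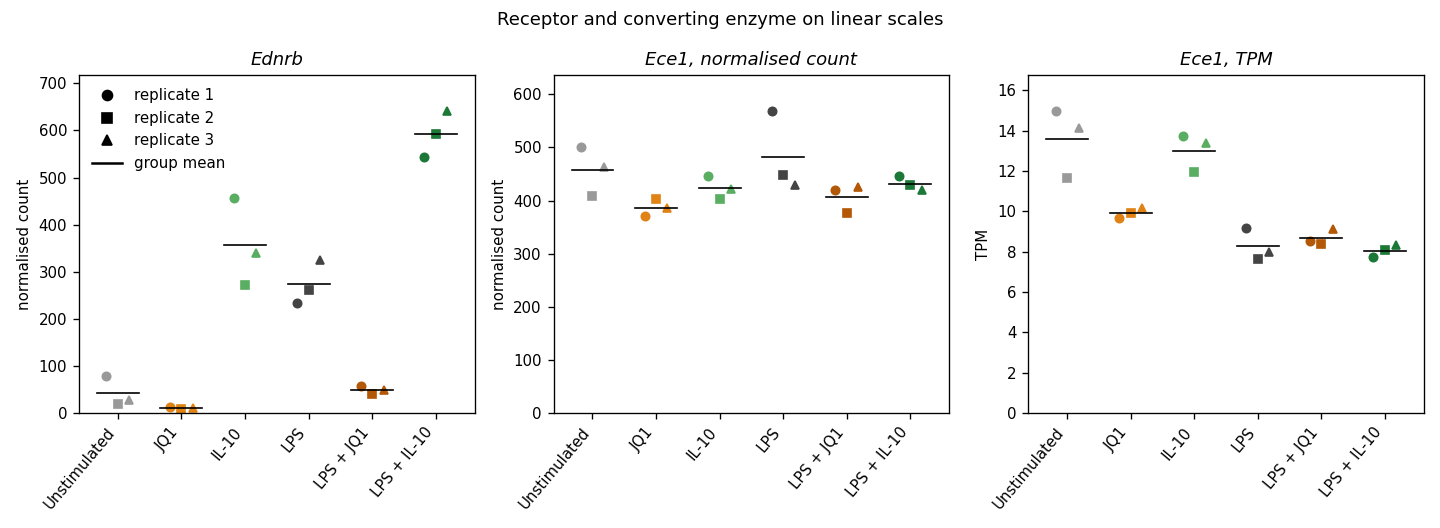
Ednrb and Ece1 as normalised counts, and Ece1 as TPM, in each of the 18 libraries on linear axes from 0, with a bar for the group mean. Ednrb is highest with LPS + IL-10 (543 to 641) and lowest with JQ1 (8.87 to 12.1), and the lower Ece1 level with LPS shows on the TPM axis and not on the normalised count axis.

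Lipg, endothelial lipase, followed Edn1 closely. Raw counts without LPS were at most 2 in any library, with a sum of 1 count over the unstimulated libraries, 0 over the JQ1 libraries and 3 over the IL-10 libraries. LPS replicates held 3426, 3143 and 3732 normalised counts, or 8503 raw counts against 1, a ratio of 11545 (exact 95% interval 2072 to 456060). It was 6047 with total-count scaling and 6449 without unstimulated replicate 3. The TPM level with LPS was 76.7 ± 11.4, rank 1526 of 14934.

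With LPS + JQ1 the Lipg libraries held 42.0, 44.2 and 65.2 normalised counts. All 3 were far below LPS alone, at 1.23% to 1.75% of the same-numbered library (log2 fold change -6.10, SE 0.168). They remained at least 18.2-fold above JQ1 alone, where no read was counted. With LPS + IL-10 the libraries held 4812, 4580 and 5593, each above every LPS library (log2 fold change 0.54, SE 0.113). The ratio of Edn1 to Lipg, both in TPM, was 1.65 ± 0.205 with LPS, 0.195 ± 0.0243 after JQ1 and LPS, and 1.75 ± 0.149 after IL-10 and LPS. With JQ1 before LPS, then, the ligand was reduced further than the lipase. The ratio after JQ1 and LPS rests on Edn1 raw counts of 4, 5 and 5, so its SD understates the counting error.

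Sele, E-selectin, was at 0 counts in all 9 libraries without LPS. LPS replicates held 519, 381 and 548 normalised counts, at least 154-fold over the floor of 3 counts per unstimulated library, or at least 81.6-fold with total-count scaling. LPS + JQ1 held 129, 90.6 and 99.7, all below LPS (log2 fold change -2.18, SE 0.511). LPS + IL-10 held 137, 33.4 and 56.8, also below every LPS library (log2 fold change -2.67, SE 0.516). Replicate 1 was the highest of the LPS + IL-10 libraries, and without it the value was -3.37. Sele was thus the 1 gene of the 5 whose levels with LPS + JQ1 and LPS + IL-10 overlapped and both lay below LPS alone, with a log2 fold change between them of 0.49 (SE 0.521, 95% interval -0.53 to 1.52) that was 1.19 without LPS + IL-10 replicate 1. It remained at least 38.5-fold over JQ1 alone and at least 38.0-fold over IL-10 alone, where no reads were counted. Its level with LPS was 14.2 ± 3.19 TPM, between that of Lipg and that of Ece1.

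Set side by side, the pretreatments left different shares of the LPS level. JQ1 left 0.172% ± 0.0134 of Edn1, 1.46% ± 0.265 of Lipg, 18.6% ± 5.49 of Ednrb, 22.3% ± 3.59 of Sele and 85.7% ± 12.9 of Ece1. The Edn1 share after JQ1 rests on raw counts of 4, 5 and 5, so its SD understates the counting error. The log2 fold change of Edn1 in LPS + JQ1 against LPS had an SE of 0.419. IL-10 left 155% ± 1.67 of Edn1, 145% ± 4.69 of Lipg and 219% ± 18.8 of Ednrb, and it left 15.2% ± 9.71 of Sele and 90.6% ± 10.7 of Ece1. Both comparisons use the same LPS libraries. LPS + JQ1 against LPS + IL-10 gave log2 fold changes of -9.83 (SE 0.419) for Edn1, -6.64 (SE 0.168) for Lipg and -3.58 (SE 0.310) for Ednrb, with no overlap between the groups. Edn1 and Lipg kept the sign of each difference among the LPS groups under total-count scaling, TMM factors and log2(TPM + 1), as did Ednrb and Sele.

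**Figure D3:**
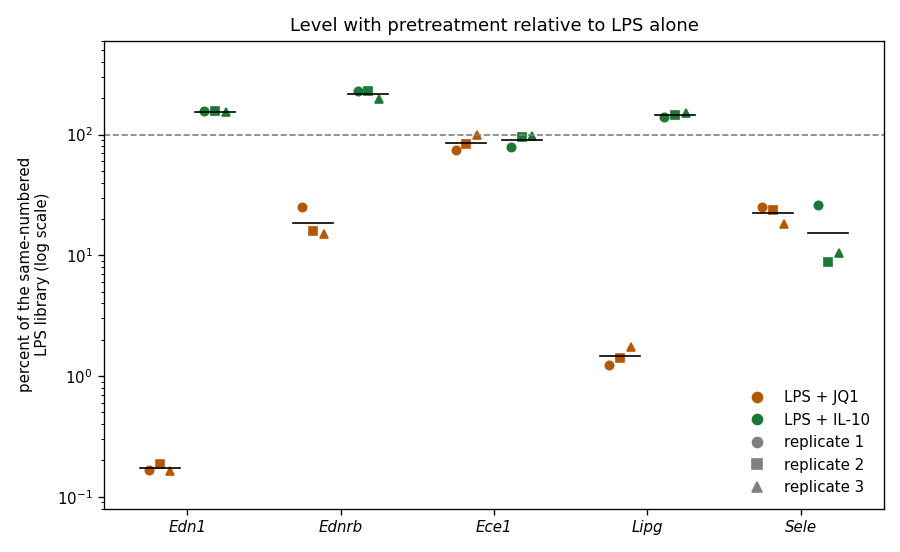
Level of each gene after JQ1 or IL-10 and LPS as a percent of the same-numbered LPS library (normalised counts, log axis, dashed line at 100%), with a bar for the mean of 3 replicates. Edn1, Lipg and Ednrb lie below the line with JQ1 and above it with IL-10, whereas Sele lies below it with both. Ece1 also lies below it with both, but closer to it, at 73.8% to 99.4% with JQ1 and 78.3% to 97.8% with IL-10.

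Other genes of these systems were listed by function and not by how they moved, 10 for each of the endothelin system, the lipases with their regulators, and the selectins with other adhesion molecules. In the endothelin system Edn2, Edn3, Ecel1, Kel and Cma1 had no count in any library, and the type A receptor Ednra had at most 2, so Edn1 was the only ligand gene and Ednrb the main receptor gene detected at this depth. LPS against unstimulated cells called 2 of the 4 listed genes tested, both higher. Ece2, a second converting enzyme, rose from 84.5 ± 15.5 to 222 ± 32.2 normalised counts (log2 fold change 1.37, SE 0.181, adjusted p 1.11e-13). Furin, which makes the first cut in the precursor, rose from 3343 ± 251 to 5719 ± 641 (0.78, SE 0.0943, adjusted p 7.25e-16), although total-count scaling gave -0.15 and log2(TPM + 1) gave 0.01. LPS + JQ1 against LPS called 2 of 3, both lower: Ece2 fell by 0.78 on the log2 scale (SE 0.176, adjusted p 2.81e-05) and Furin by 0.32 (SE 0.0941, adjusted p 0.00153). Furin did not pass with edgeR (adjusted p 0.065), and its value was 0.06 with total-count scaling. LPS + IL-10 against LPS called neither of the 2 tested, with Ece2 at -0.11 (adjusted p 0.762) and Furin at 0.06 (adjusted p 0.775).

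Among the lipases, Lpl (lipoprotein lipase), Lipa (lysosomal acid lipase) and Lmf1, a factor needed for the folding of lipoprotein lipase and endothelial lipase, were abundant enough to be named. LPS called 1 of 8 tested higher and 3 lower. Lpl rose (log2 fold change 0.52, SE 0.118, adjusted p 1.84e-05), but total-count scaling gave -0.40 and log2(TPM + 1) gave -0.27. Lipa fell by 1.02 (SE 0.110, adjusted p 6.59e-20) and Lmf1 by 0.34 (SE 0.120, adjusted p 0.00825), with the same sign on all scales tried. LPS + JQ1 against LPS called 3 of 7, all lower: Lpl fell by 1.03 (SE 0.118, adjusted p 1.19e-17), Lmf1 by 0.79 (SE 0.138, adjusted p 3.53e-08) and Lipa by 0.44 (SE 0.111, adjusted p 1.73e-04). The Lipa call was lost with total-count scaling (-0.07, adjusted p 0.673) and with limma on log2(TPM + 1) (-0.13, adjusted p 0.447). In LPS + IL-10 against LPS, Lpl alone of 4 tested passed and was lower (-0.53, SE 0.118, adjusted p 1.11e-04), where Lipg was higher, but with limma on log2(TPM + 1) its adjusted p was 0.0838. Gpihbp1, the endothelial anchor of lipoprotein lipase, had no count in any library.

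In the selectin and adhesion list LPS called 5 of 9 higher and 1 lower. Icam1, an integrin ligand, rose from 953 ± 345 to 94602 ± 5101 (log2 fold change 6.63, SE 0.186, adjusted p 4.23e-276), Vcam1, another integrin ligand, from 177 ± 57.0 to 10847 ± 2292 (5.93, SE 0.324, adjusted p 1.4e-73), and Cd44, which can carry selectin-binding glycans, by 2.57 (SE 0.0581). Glg1, a Golgi protein known as an E-selectin ligand, fell by 0.79 (SE 0.0416, adjusted p 7e-80). LPS + JQ1 against LPS called 6 of 9 lower and 1 higher. Vcam1 fell by 1.43 (SE 0.318, adjusted p 2e-05), Icam1 by 0.81 (SE 0.184, adjusted p 3.3e-05) and Cd44 by 0.32 (SE 0.0574, adjusted p 7.49e-08), the last at 0.05 with total-count scaling. Glg1 rose by 1.18 (SE 0.0412, adjusted p 2.73e-177). LPS + IL-10 against LPS called 3 of 8 lower, namely Vcam1 (-1.35, SE 0.318, adjusted p 3.19e-04), Icam1 (-0.72, SE 0.184, adjusted p 0.00111) and Cd44 (-0.21, SE 0.0574, adjusted p 0.00261), and called Glg1 higher (0.27, SE 0.0436, adjusted p 1.84e-08). The Cd44 call was lost with edgeR (adjusted p 0.107), with total-count scaling (-0.12, adjusted p 0.153) and with limma on log2(TPM + 1) (-0.10, adjusted p 0.47). Of these adhesion genes, Icam1 and Vcam1 had lower levels with both pretreatments. Sele, measured against the same LPS libraries, had log2 fold changes of -2.18 and -2.67.

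**Figure D4:**
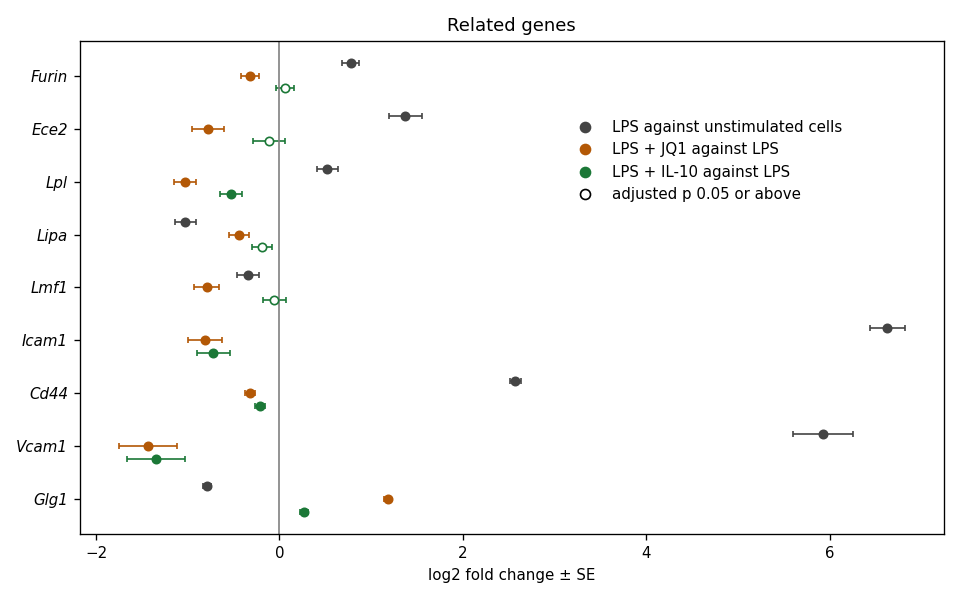
Log2 fold changes with SE of the 9 named related genes in LPS against unstimulated cells, LPS + JQ1 against LPS and LPS + IL-10 against LPS (DESeq2, open symbols for an adjusted p of 0.05 or above). Icam1, Vcam1 and Cd44 lie to the right of 0 with LPS (2.57 to 6.63) and to the left of 0 with both pretreatments, and Glg1 does the opposite.

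Over all 30 listed genes, of which 24 had a count, LPS called 8 higher and 4 lower of 21 tested, beside 31.6% and 32.9% of all genes. Their median log2 fold change was 0.00, beside -0.07 for all genes tested. Total-count scaling gave 5 higher and 8 lower. JQ1 alone called 1 higher and 8 lower of 18 (21.9% and 23.7% of all genes), with a median of -0.77 beside 0.00. LPS + JQ1 against LPS called 1 higher and 11 lower of 19 (24.4% and 32.9% of all genes), with a median of -0.99 beside -0.11. LPS + IL-10 against LPS called 1 higher and 4 lower of 14 (8.38% and 8.81% of all genes), with a median of -0.15 beside -0.02. LPS + JQ1 against LPS + IL-10 called 1 higher and 9 lower of 19 (23.8% and 31.6% of all genes). IL-10 alone called 0 of 14 with DESeq2 (2.81% of all genes) and 0 with edgeR, 4 at an unadjusted p under 0.05 and 1, Furin, with limma on log2(TPM + 1).

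The genes most like each of the 5 were ranked by Pearson correlation of variance-stabilised counts over the 18 libraries, among 11385 candidates. Those values mostly reflect the presence of LPS and the shared libraries, and they are a description. Edn1 was most like Mdfic (r = 0.993), Stx2 (0.993) and Nt5c1a (0.992). Nt5c1a had mean normalised counts of 30.1 with LPS and 32.6 with LPS + IL-10 and was at 0 in the other groups. Lipg was most like Acsl1, a long-chain acyl-CoA synthetase, Tbc1d13 and Bambi-ps1 (0.997 each), and its correlation with Edn1 was 0.981. Acsl1 had a mean of 770 unstimulated and 8094 with LPS, which was 1609 after JQ1 and 9019 after IL-10. Sele was most like Cx3cl1 (0.995), Fam133b (0.994) and Swap70 (0.993). Cx3cl1, which encodes the adhesive chemokine fractalkine, shared the drop with both pretreatments, with a mean of 14.0 unstimulated and 1269 with LPS, against 323 after JQ1 and 278 after IL-10. For Ednrb the values were lower, with C4b at 0.910, Sbno2 at 0.905 and Mapk11 at 0.901. Sbno2 had means of 2237 unstimulated, 3812 with IL-10 and 4010 with LPS, and LPS after JQ1 gave 1145 and LPS after IL-10 gave 8550. For Ece1 they were lower still (Spn at 0.785, Armc6 at 0.761, Vars at 0.739).

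Edn1, Lipg and Sele are best known from endothelium, so endothelial markers were read in the same libraries. In bulk RNA a change in the number of cells of a type cannot be told apart from a change in RNA per cell. Of 16 endothelial markers, 6 had a group mean above the floor in unstimulated cells, 5 with LPS and 3 with LPS + JQ1. Sox17 was at 0 in every library, Cldn5 and Tek had at most 1 count in any library and Tie1 at most 4. Without LPS the summed level was 13.1 to 15.8 TPM in unstimulated cells, 4.36 to 5.78 after JQ1 and 11.4 to 13.3 after IL-10. With LPS it was 17.3 to 19.2 TPM, and it was 4.97 to 6.35 where JQ1 and 18.2 to 19.2 where IL-10 came first. The sum was highest in the groups where Kdr, the VEGF receptor, singled out after its values were seen, was high. Kdr had mean normalised counts of 19.2 unstimulated, 532 with LPS, 3.31 when JQ1 and 490 when IL-10 came before LPS. Without Kdr the sum was 12.6 to 15.2 TPM in unstimulated cells and 9.98 to 10.3 TPM with LPS, thus lower with LPS on the TPM scale. It was 4.92 to 6.25 TPM where JQ1 and 9.90 to 11.2 TPM where IL-10 came first. No such sum was taken on normalised counts, and direction with LPS depends on the scaling. Cdh5, VE-cadherin, was at 3.80 unstimulated, 19.1 with LPS, 0.821 when JQ1 and 20.5 when IL-10 came first. Flt1 was at 79.8 unstimulated, 394 with LPS, 206 when JQ1 and 440 when IL-10 came first. Vwf went the other way with LPS, from 652 to 421. In TPM, Vwf fell from 10.3 to 3.88 with LPS, whereas Flt1 rose from 1.78 to 5.16. Vwf held most of the unstimulated TPM sum without Kdr, so the lower TPM sum with LPS followed Vwf. Of 10 endothelial markers tested, LPS called Cdh5, Flt1 and Kdr higher and Vwf lower (31.6% and 32.9% of all genes).

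The 6 stromal markers summed to 5.04 to 10.3 TPM in unstimulated libraries, 17.6 to 19.7 with LPS, 2.29 to 7.23 where JQ1 and 19.7 to 20.9 where IL-10 preceded LPS, and Pdgfrb went from a mean of 15.0 to 873 normalised counts with LPS. Without Pdgfrb, likewise singled out after its values were seen, the sum was 4.78 to 9.76 TPM in unstimulated libraries and 3.44 to 7.03 TPM with LPS, which overlapped. The 7 granulocyte markers summed to at most 10.5 TPM in any library. The part of other cell types in the values of the 5 genes was not tested.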

How the data were processed

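Libraries were stranded, depleted of ribosomal RNA and read from both ends by the authors, who then used TagDust for read extraction, STAR for alignment to mm9 and RSEM 1.2.31 for quantification, all as set by default, where RSEM takes no account of strand. The deposited expected counts are RSEM's estimated counts per gene. Between 5.40% and 6.63% of them per library were fractional, so they were rounded. The deposited TPM values are the authors' per-length abundances. The deposited FPKM values were not used. A further column gave the authors' transcript length.

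DESeq2 1.42.0 in R 4.3.3 was fitted to all 18 libraries with group as the term, and Wald tests with a Benjamini-Hochberg adjusted p under 0.05 made calls over all genes. Genes of the related lists were named when they passed in a comparison and averaged at least 100 normalised counts, at most 4 per list. The 5 genes, the lists and the tests were chosen with earlier results of these data known. Genes at 0 in a group were compared with a floor of 3 counts per library. Likeness was ranked among genes that averaged at least 10 normalised counts, and the top 3 per gene are given.

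Alternatives were edgeR 4.0.16 with TMM factors, total-count scaling, limma 3.58.1 on log2(TPM + 1) and log2(TPM + 0.1) over genes with TPM of at least 1 in at least 3 libraries, a filter of at least 10 counts in at least 3 libraries, only the groups compared, the replicate number as a block, the lane as a covariate, and leaving out each library. The labels describe matched samples from 3 mice but give no mouse per library, so that equal replicate numbers mark the same mouse is an assumption. The mean correlation of same-numbered deviations from the group means was 0.15 for LPS, 0.13 for JQ1 and 0.22 for IL-10 against unstimulated cells, 0.40 for LPS + IL-10 and -0.05 for LPS + JQ1 against LPS, and -0.07 for LPS + JQ1 against LPS + IL-10. Replicates of a group differed with a chi-square per degree of freedom of 4.14 to 30.5, so none was a repeat deposit. The scripts were tested on simulated counts. The exact intervals and floors cover counting error only and leave out variation between libraries. Reads carry no molecular identifiers, so copies made in amplification are not told apart either.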

Additional observations from a re-analysis of the deposited data

Results flagged for a closer look

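Among the 5 genes and the named related genes, 2 had opposite signs with IL-10 without and with LPS in all 3 same-numbered pairs. The search also covered JQ1 without and with LPS, and LPS without and after each pretreatment. These 2 genes were selected by their signs in the same libraries, so the interaction p-values below are a description and do not support the selection. IL-10 alone called neither of them with the DESeq2 Wald test (Glg1 adjusted p 0.301). The Lmf1 log2 ratio without LPS was only 0.0003 in replicate 1. For Glg1, the Golgi protein known as an E-selectin ligand, the mean log2 ratio of normalised counts was -0.09 without LPS and 0.27 with LPS, a difference of 0.36, and the DESeq2 interaction was 0.36 (SE 0.0576, adjusted p 5.68e-08). For Lmf1 the means were 0.05 without LPS and -0.05 with LPS, a difference of -0.10, and the interaction was -0.11 (SE 0.168, adjusted p 0.869), which did not pass.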

How the results depend on the processing

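No alternative reversed the sign of a difference of the 5 genes that had passed the threshold. These genes were picked for their changes in the same libraries, so this describes the processing and is no test of the differences. The counts of calls with edgeR and TMM factors were all within 1.5 times. The count over all genes for IL-10 alone, 358, was 171 with limma on log2(TPM + 1), 117 on log2(TPM + 0.1), and 168 (without IL-10 replicate 1) to 374 over fits that each left out 1 library, with 230 without Unstimulated replicate 3. For LPS + IL-10 against LPS, 1968 calls became 1089 when only those groups were fitted. For related genes, LPS + JQ1 against LPS + IL-10 gave 6 calls with total-count scaling, against 10. LPS + IL-10 against LPS gave 3 calls with limma on either TPM scale and 3 when only those groups were fitted, against 5. IL-10 alone gave 1 call with limma on either scale, 1 with the lane as a covariate, 2 when only those groups were fitted, and 0 to 1 over fits that left out 1 library (1, Icam1, without Unstimulated replicate 1), against 0.

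With the replicate number as a block, IL-10 alone called 1 related gene, Lpl, against 0, and the block left every other count of calls within 1.5 times. Calls over all genes with the block were 9711 for LPS, 6347 for JQ1 and 447 for IL-10 against unstimulated cells, 8254 for LPS + JQ1 and 2116 for LPS + IL-10 against LPS, and 7964 for LPS + JQ1 against LPS + IL-10.

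The share of calls that were higher moved with scaling to total counts and with limma on log2(TPM + 1): from 48.0% to 26.8% and 24.6% for JQ1 alone, from 48.7% to 71.1% and 75.3% for LPS + IL-10 against LPS, and from 42.9% to 61.2% and 57.7% for LPS + JQ1 against LPS + IL-10. Limma moved it from 64.0% to 84.8% for IL-10 alone. Direction in these comparisons is relative to the scaling, and among the genes named above the sign of Ece1, Furin, Lpl, Cd44, Lipa, Icam1, Vcam1, Lmf1, Edn1 (JQ1 alone) and Ece2 (IL-10 alone) turned in at least 1 comparison. Depth limits Edn1 and Lipg without LPS, where a change from 0 to 2 counts cannot be read.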
